A study of Mus musculus with 12 samples.

Results

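Primary mouse keratinocytes carrying an HGF transgene were compared directly with keratinocytes expressing the oncogene v-rasHa, to describe what separates cells driven through the receptor MET from cells driven by RAS. The comparison set 3 arrays of MT-HGF keratinocytes against 3 arrays of v-rasHa-transduced wild-type keratinocytes (RAS cells), 6 of the 12 arrays, across 15868 genes. Every difference below is MT-HGF minus RAS on the log2 scale of the authors' RMA values, so a positive value means a higher signal in MT-HGF cells. RMA is a method that corrects, normalizes and summarises the probes of each Affymetrix transcript cluster.

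All cells were FVB/N primary keratinocytes in culture. MT-HGF mice carry an Hgf transgene under a metallothionein promoter, which is not restricted to keratinocytes, and their cells were labelled as controls. RAS cells were wild type in genotype and expressed v-rasHa, the Harvey sarcoma virus form of Hras, after transduction. The labels give both groups one protocol note, a RAS transduction of 3 days in regular medium, so it is not given whether MT-HGF cells were mock transduced. Genotype, oncogene and the transduction step therefore cannot be told apart in this comparison. A further 3 arrays were of wild-type control cells, which carry the same transduction note. Another 3 arrays were of MT-HGF cells, mock transduced and kept for 24 h with the EGFR kinase inhibitor AG1478 in 8% serum. Both sets are quoted as levels with no test of their own. Their spread between arrays did enter the estimate behind each SE and p-value below. The AG1478 arrays came with other descriptions of extraction and labelling. The MT-HGF, RAS and wild-type replicates were titled as biological and the AG1478 replicates only numbered, with nothing said of separate animals. The spread behind each p-value is therefore that among arrays and may be technical only.

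Hepatocyte growth factor (HGF) is a secreted ligand, made in skin mainly by dermal cells, and MET is its receptor tyrosine kinase on epithelial cells. Active MET recruits adaptors such as GAB1 and GRB2 and switches on RAS, the RAF-MEK-ERK cascade, PI3 kinase and STAT3. Oncogenic RAS enters the same cascade below the receptors, and in keratinocytes it induces ligands of the epidermal growth factor receptor (EGFR) and alters the normal programme of differentiation. That programme runs from basal cells (keratins 5 and 14) through spinous cells (keratins 1 and 10) to granular and cornified cells, which build the cornified envelope from proteins such as loricrin, the small proline-rich (SPRR) and the late cornified envelope (LCE) proteins.

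The arrays were alike in overall signal, with medians between 6.77 and 6.84 log2 units. Arrays correlated at 0.995 to 0.997 within the MT-HGF or RAS group and at 0.981 to 0.985 between the groups. The 95th percentile of 161 chemosensory receptor genes, which keratinocytes are not known to use, served as the background of each array and lay at 6.88 to 7.05 on the MT-HGF arrays and 6.82 to 7.08 on the RAS arrays. Where the lower group did not exceed it on any array, a difference is given as a bound, taken against that background. The basal keratin genes Krt5 and Krt14, named here as a check of the cell type, averaged 13.38 and 12.88 in MT-HGF cells and 13.47 and 12.97 in RAS cells. Hras, the cellular form of the oncogene, was not analysed here because no single-symbol cluster of it passed the filter.

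Markers of other cell types moved with the comparison. Over all genes tested, 13.4% were called higher and 12.6% lower at an adjusted p under 0.05 in limma. Each list count here and below is to be read beside those shares. Of 20 fibroblast markers tested, 13 were called higher and 2 lower in MT-HGF cells, and the mean of the list was 8.09 to 8.18 on the MT-HGF arrays, 7.78 to 7.81 on the RAS arrays and 8.44 to 8.46 on the wild-type arrays. The matrix genes Fbln1 (0.79) and Col1a2 (0.63) were higher, while Pdgfra (-0.59) and Prrx1 (-0.40), a receptor and a transcription factor of fibroblasts, were lower, and 4 of the 20, Lum among them, were not above background in either group. Of 19 melanocyte markers, 12 were lower and 1 higher, with list means of 8.79 to 8.95 on the MT-HGF, 9.12 to 9.27 on the RAS and 9.07 to 9.23 on the wild-type arrays. The pigment-cell genes Oca2 (-0.78), Mlana (-0.77) and Pax3 (-0.53) were lower, whereas Rab38 (0.30), another member of the list, was higher. Tyrp1 and Dct, enzymes that define melanocytes and were named after their values were seen, averaged 12.14 and 11.54 in MT-HGF and 12.57 and 11.85 in RAS cells. None of 13 leukocyte markers was called by limma (1 was lower at an unadjusted p under 0.05, and 0 to 4 were called lower over the 17 alternatives, 1 of them without MT-HGF array 1), and 10 of the 13, Lyz2 included, were not above background in either group. Of 11 endothelial markers 2 were called higher, or 1 without RAS array 2, and 8 had at most 1 of the 6 arrays above background. In bulk RNA, fewer cells of a type and less RNA per cell cannot be told apart. The part of fibroblasts and melanocytes in the differences below was not tested.

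Of 15868 genes, 4131 (26.0%) were called at an adjusted p under 0.05 in limma with Benjamini-Hochberg adjustment. Higher signals in MT-HGF cells made up 2129 of these (13.4% of genes tested) and lower signals 2002 (12.6%). Most differences were small: 89 genes (0.561%) were called higher and 70 (0.441%) lower by 2-fold or more, and the median difference of all genes was -0.02. The MT-HGF and RAS arrays did not overlap for 6225 genes (39.2%), among them 4056 of those called. For 15 of the 89 and 16 of the 70 genes the lower group was not above background, so their fold is only a bound.

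**Figure D1:**
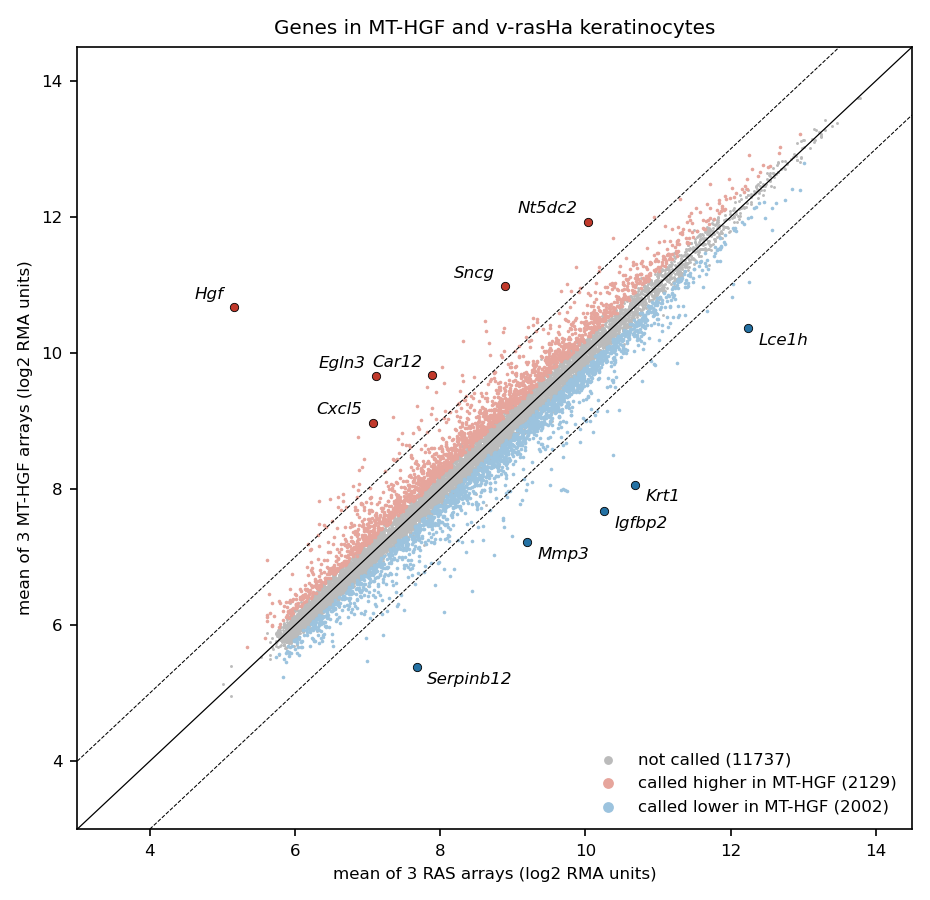
Mean of the 3 RAS arrays (horizontal) against the mean of the 3 MT-HGF arrays (vertical) for each of 15868 genes, both in log2 RMA units. The solid line marks equal signal and the dashed lines a 2-fold difference. Pink points are the 2129 genes called higher and light blue points the 2002 called lower in MT-HGF cells. Hgf stands alone at 10.68 against 5.16, and most called genes lie inside the dashed lines.

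Hgf itself checked the labels. It read 10.59, 10.72 and 10.73 log2 units on the MT-HGF arrays and 4.90, 5.36 and 5.22 on the RAS arrays. All MT-HGF arrays were far above all RAS arrays, none of which exceeded background, so the difference is at least 12.9-fold (bound 3.69). The measured difference was 5.52 ± 0.0946 (limma adjusted p = 6.94e-16), where ± gives the SE here and below (n = 3 arrays in each group). The AG1478-treated MT-HGF arrays averaged 10.74 and the wild-type arrays 4.91. Whether its probes read the transgene, the endogenous gene or both was not tested.

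The receptor showed no such gap. Met read 9.87, 9.92 and 10.02 on the MT-HGF arrays and 9.99, 9.83 and 10.04 on the RAS arrays, which overlapped (difference -0.01 ± 0.0823, limma adjusted p = 0.939). Of 22 genes of the HGF and MET pathway, 6 were called higher and 2 lower, against 13.4% and 12.6% of all genes, with a median of -0.02. The 6 include Hgf itself, the gene of the transgene, whose call follows from the choice of groups and is no further result. Mst1 (0.72 ± 0.0701), the ligand most like HGF, and Mst1r (0.43 ± 0.0751), its receptor RON, were both higher. Stat3 (0.34), a transcription factor that MET activates, was higher as well. Cbl (-0.48 ± 0.0592), the ubiquitin ligase that sends active MET for degradation, was lower, at 9.44 to 9.48 against 9.89 or more on each RAS array. The lower count ran from 1 to 6 over the 17 alternatives, and was 1 without MT-HGF array 1, MT-HGF array 2 or RAS array 3.

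Among the 20 genes with the largest higher signals in MT-HGF cells was Egln3, which encodes an oxygen-dependent hydroxylase of HIF proteins and is itself induced by HIF. It read 9.59, 9.46 and 9.93 on the MT-HGF arrays and 7.0, 7.13 and 7.21 on the RAS arrays, of which 2 exceeded background. The groups lay far apart (5.84-fold, 2.55 ± 0.117, limma adjusted p = 7.50e-10), and wild-type cells averaged 6.59. Slc16a3, which exports lactate, read 10.21, 10.22 and 10.08 against 8.45, 8.10 and 8.41 (1.85 ± 0.126). Car12, a cell-surface carbonic anhydrase, read 9.73, 9.67 and 9.63 against 7.85, 7.87 and 7.96 (1.79 ± 0.0979). Aldoc, a glycolytic aldolase, read 9.40, 9.45 and 9.66 against 7.86, 7.81 and 7.79 (1.68 ± 0.0945). The 20 genes in each direction were chosen among called genes whose groups did not overlap, so the lack of overlap is no further result. The AG1478-treated MT-HGF cells averaged 9.54, 9.96, 10.16 and 10.06 for these 4 genes in the same order.

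Of the same 20 genes, Cxcl5, a chemokine that attracts neutrophils, read 8.85, 8.99 and 9.10 against 7.27, 6.67 and 7.27 (1.91 ± 0.13, limma adjusted p = 2.55e-08), with 2 RAS arrays above background and a wild-type mean of 5.42. Muc15, a membrane mucin, was higher by 1.90 ± 0.108, with 1 RAS array above background. Slc6a14, an amino acid transporter, read 8.99 to 9.18 against 7.19 to 7.59 (1.70 ± 0.13). Wfdc2, a secreted protein with a protease inhibitor fold, read 9.33, 9.42 and 9.55 against 8.40, 7.54 and 7.88 (1.49 ± 0.143), the RAS arrays spreading more widely than the MT-HGF arrays. Dcn, the matrix proteoglycan decorin and also 1 of the fibroblast markers, read 10.27 to 10.36 against 8.45 to 8.76 (1.69 ± 0.0936). Slc7a11, the cystine importer that feeds glutathione synthesis, read 10.20 to 10.45 against 8.72 to 8.99 (1.48 ± 0.0952).

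Sncg, a synuclein, read 10.80, 11.19 and 10.97 against 8.96, 9.05 and 8.67 (2.09 ± 0.102). Nt5dc2, a member of a nucleotidase-like family, read 11.78 to 12.03 against 9.79 to 10.16 (1.90 ± 0.108). 2610528A11Rik read 10.25, 10.42 and 10.74 against 8.58, 8.65 and 8.61 (1.86 ± 0.107) and averaged 12.08 in the AG1478-treated cells. Cbr2, a carbonyl reductase, was higher by 1.77 ± 0.102, Rarres1, a retinoid-responsive gene, by 1.54 ± 0.0895, and Stc2, a secreted glycoprotein induced by stress, by 1.5 ± 0.0697. The mitochondrial carbonic anhydrase gene Car5b was higher by 1.49 ± 0.115, with 2 RAS arrays above background, and Pdzk1ip1, a small membrane protein, by 1.48 ± 0.076. Apoc1, a lipoprotein component, had no RAS array above background and was at least 1.79-fold higher.

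Keratin 1 was lower in MT-HGF cells by more than any other gene. Krt1 read 7.93, 8.04 and 8.23 on the MT-HGF arrays and 10.29, 11.02 and 10.73 on the RAS arrays. The difference was 6.12-fold (-2.61 ± 0.13, limma adjusted p = 1.29e-09), and both groups lay below the wild-type mean of 12.02. The AG1478-treated MT-HGF cells averaged 12.84. Its partner Krt10 read 7.39, 7.22 and 7.34 against 8.66, 9.29 and 9.01 (-1.67 ± 0.132, limma adjusted p = 1.36e-07), with 10.63 in wild-type and 10.23 in AG1478-treated cells. The order of group means was the same for both keratins from MT-HGF to RAS to the other 2 groups.

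Igfbp2, a secreted binding protein of insulin-like growth factors, read 7.64, 7.63 and 7.76 on the MT-HGF arrays and 10.05, 10.40 and 10.33 on the RAS arrays. The difference was -2.58 ± 0.084 (limma adjusted p = 8.84e-12), and the wild-type mean was 12.07. The stromelysin genes Mmp3 and Mmp10 encode matrix metalloproteinases and were low in wild-type cells. Mmp3 read 7.16, 7.05 and 7.45 against 9.20, 9.16 and 9.23 (-1.98 ± 0.109, limma adjusted p = 3.58e-09), with a wild-type mean of 5.63. Mmp10 read 7.91, 7.93 and 8.13 against 9.73, 9.62 and 9.81 (-1.73 ± 0.0763), with a wild-type mean of 6.65. For both, the MT-HGF means lay between the wild-type and RAS means.

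Among the other large lower signals, Car2, the cytosolic carbonic anhydrase, read 7.77, 7.98 and 8.21 against 9.69, 9.56 and 9.76 (-1.68 ± 0.099), with 5.69 in wild-type cells. Gpsm1, a regulator of G protein signalling, read 7.93 to 8.04 against 9.44 to 9.86 (-1.70 ± 0.0921). Glul, glutamine synthetase, read 7.89, 7.97 and 8.33 against 9.68, 9.20 and 9.64 (-1.45 ± 0.189). Dusp10, a phosphatase that acts on JNK and p38 kinases, read 9.84, 9.73 and 9.99 against 11.23, 11.24 and 11.30 (-1.41 ± 0.0696). Sdcbp2, a PDZ domain protein, was lower by 1.44 on the log2 scale, and Ccnb1ip1, a ubiquitin ligase, by 1.37, the latter with 1 MT-HGF array above background.

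In 5 of the 20 largest lower signals no MT-HGF array exceeded background, and the differences are given as bounds. The receptor gene Gpr50 was at least 2.81-fold lower, Agpat4, an acyltransferase of phospholipid synthesis, at least 2.28-fold and Entpd1, the ectoenzyme CD39, at least 2.16-fold. Serpinb12, an epithelial serpin, was at least 1.66-fold lower, and the guidance factor gene Sema3a at least 1.20-fold. The 5 genes had RAS signals of 7.14 to 8.54, with wild-type means of 5.84 to 7.77.

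**Figure D2:**
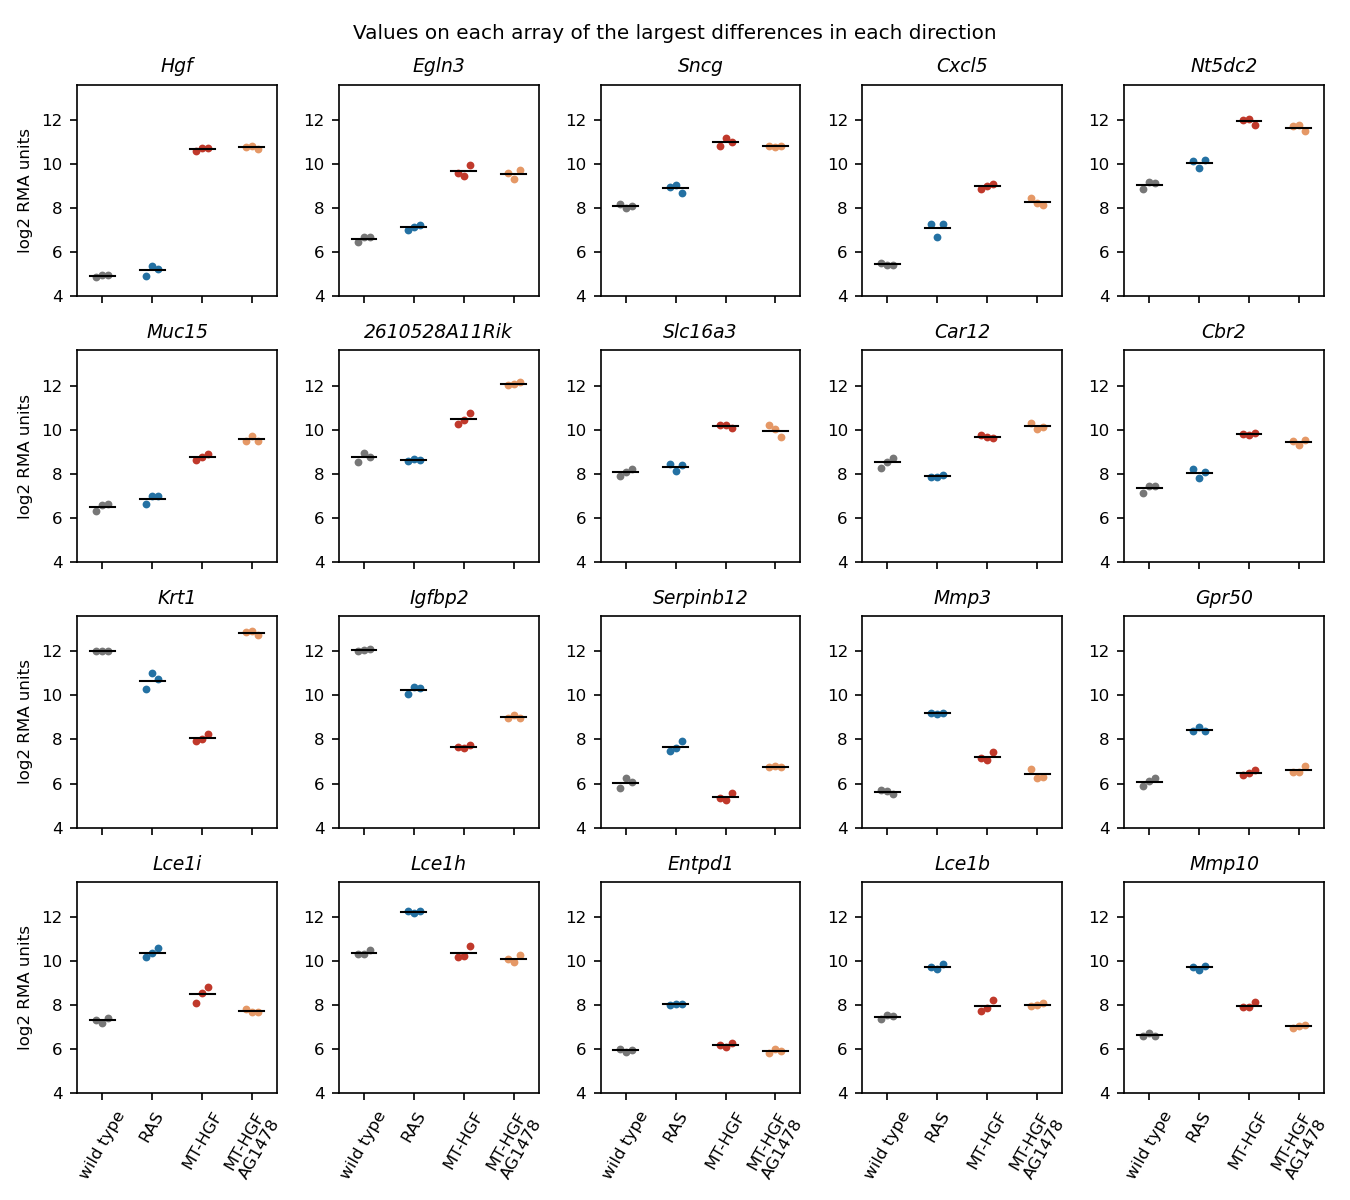
Signal on each array (points, log2 RMA units) and group mean (black line) of the 10 genes with the largest higher signal in MT-HGF cells (upper 2 rows) and the 10 with the largest lower signal (lower 2 rows), in wild-type, RAS, MT-HGF and AG1478-treated MT-HGF cells. Krt1 and Igfbp2 were lowest in MT-HGF cells and highest in AG1478-treated or wild-type cells, while Mmp3, Mmp10 and the Lce genes were highest in RAS cells.

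The promoters of 2 genes higher and 2 genes lower in MT-HGF cells are shown because each holds the letters of a motif known for its pathway, and they were chosen after values and matches were seen. The 250 bases before the gene start come from RefSeq (GRCm38.p6), 5′ to 3′ on the gene's strand. Capitals mark ACGTG, the core that HIF proteins bind, in Egln3 (chr12:54203875-54204124, minus strand) and Slc16a3 (chr11:120948817-120949066, plus strand). They mark TGANTCA, the AP-1 motif bound by FOS and JUN proteins, in Mmp3 (chr9:7445572-7445821, plus strand) and Mmp10 (chr9:7502092-7502341, plus strand).
Egln3: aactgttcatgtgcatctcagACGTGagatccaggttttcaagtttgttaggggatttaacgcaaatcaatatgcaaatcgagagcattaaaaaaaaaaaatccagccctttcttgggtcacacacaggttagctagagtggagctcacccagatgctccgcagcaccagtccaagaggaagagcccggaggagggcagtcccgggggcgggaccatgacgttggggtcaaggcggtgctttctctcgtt
Slc16a3: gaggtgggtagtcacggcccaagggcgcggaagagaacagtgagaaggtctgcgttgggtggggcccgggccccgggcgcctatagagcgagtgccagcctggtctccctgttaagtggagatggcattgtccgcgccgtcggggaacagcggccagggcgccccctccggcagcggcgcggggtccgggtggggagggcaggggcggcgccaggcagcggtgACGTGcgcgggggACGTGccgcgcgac
Mmp3: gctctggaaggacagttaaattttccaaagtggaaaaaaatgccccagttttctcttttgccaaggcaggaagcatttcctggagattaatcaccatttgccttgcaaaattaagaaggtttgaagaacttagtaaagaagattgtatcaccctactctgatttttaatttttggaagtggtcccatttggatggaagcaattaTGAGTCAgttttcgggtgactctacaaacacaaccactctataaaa
Mmp10: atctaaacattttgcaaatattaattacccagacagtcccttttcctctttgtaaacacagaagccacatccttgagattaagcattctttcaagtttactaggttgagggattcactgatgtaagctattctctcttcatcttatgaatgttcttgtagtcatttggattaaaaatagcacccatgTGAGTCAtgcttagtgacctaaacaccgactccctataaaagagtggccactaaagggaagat

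The ACGTG core began at position -229 in Egln3 and at -27 and -14 in Slc16a3, counted from the gene start. The AP-1 motif began at -46 in Mmp3 and at -63 in Mmp10. Both strands were searched, and neither motif contains the other. ACGTG stood in 16.6% of all 32851 windows of this length and TGANTCA in 6.75%. Of 12496 tested genes with a window, 23.0% held ACGTG and 6.28% TGANTCA. In the hypoxia and glycolysis list 19 of 30 windows (63.3%) held ACGTG. It stood in 12 of 65 windows (18.5%) of genes higher and 9 of 57 (15.8%) of genes lower by 2-fold or more. Of all genes called, 23.6% of those higher and 26.1% of those lower held it. TGANTCA stood in 12 of 57 windows (21.1%) of genes lower by 2-fold or more and in 7 of 65 (10.8%) of genes higher by 2-fold or more. These are matches of letters and show no binding.

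The ligands of EGFR differed little between the groups. Of 6 tested ligand genes, 1 was called higher and 1 lower, against 13.4% and 12.6% of all genes, and Areg, which encodes amphiregulin, was not analysed here. Ereg (epiregulin) read 9.84, 9.96 and 9.92 on the MT-HGF arrays and 9.39, 9.44 and 9.56 on the RAS arrays, with no overlap (0.44 ± 0.112, limma adjusted p = 0.00791). Hbegf, the heparin-binding ligand, read 11.29, 11.35 and 11.18 against 11.70, 11.47 and 11.81 (-0.39 ± 0.132, limma adjusted p = 0.0412). That call was lost without any 1 of MT-HGF arrays 1, 2 and 3 or RAS arrays 1 and 3 (limma adjusted p of 0.0671 to 0.150), without the filter (0.0567) and after median centring (0.0545), and held without RAS array 2 (0.0295). Tgfa read 10.46 to 10.52 against 10.17 to 10.47 (limma adjusted p = 0.219) and Epgn 11.84 to 11.94 against 11.73 to 11.81 (0.114). Btc read 7.83 to 8.01 against 8.02 to 8.14 (0.115), and Egf stayed at background on all 6 arrays. For scale, wild-type means were 8.20 for Ereg, 9.02 for Hbegf and 8.18 for Tgfa.

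Egfr read 10.24, 10.15 and 10.18 on the MT-HGF arrays and 10.15, 10.27 and 10.30 on the RAS arrays, which overlapped (-0.05 ± 0.0732, limma adjusted p = 0.727). Among 14 EGFR family receptors and regulators 3 were called higher and 1 lower, against 13.4% and 12.6% of all genes. Erbb2 (0.26 ± 0.0643), the co-receptor without a ligand, and Lrig1 (0.46 ± 0.0709), an inhibitor of EGFR family receptors, were higher, and the phosphatase gene Ptpn14 (-0.27 ± 0.0605) was lower. Of 12 genes of ligand shedding, the step that frees membrane-bound ligands, 5 were higher and 3 lower. The sheddases Adam17 (0.44 ± 0.0818), Adam10 (0.32) and Adam9 (0.31) were higher. Timp3, which inhibits ADAM17, was lower by 1.02 on the log2 scale, at 9.82, 9.89 and 9.94 against 10.74, 11.02 and 10.94, and Timp1 by 0.64, at 7.93 to 8.30 against 8.64 to 8.83. Without MT-HGF array 1 or RAS array 1, 3 of the 12 genes were called higher, and the range over the 17 alternatives was 3 to 6.

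Genes that respond to ERK and feed back on it were more often lower than higher in MT-HGF cells. Of 34 tested, 14 were lower and 4 higher, against 12.6% and 13.4% of all genes, with a median of -0.14. The mean of the list was 9.34 to 9.42 on the MT-HGF arrays, 9.53 to 9.61 on the RAS arrays and 9.0 to 9.03 on the wild-type arrays. Spry4, an inhibitor of receptor signalling to RAS, read 7.64, 7.70 and 7.78 against 8.52, 8.53 and 8.48 (-0.80 ± 0.0638, limma adjusted p = 1.47e-07). Klf6, an immediate early transcription factor, read 10.45 to 10.62 against 11.22 to 11.34 (-0.75 ± 0.0677). Dusp1, a phosphatase of MAP kinases, read 10.60 to 10.78 against 11.28 to 11.46 (-0.66 ± 0.0758). Etv5, a transcription factor of the PEA3 group, went the other way, at 8.33, 8.39 and 8.50 against 7.62, 7.70 and 7.68 (0.74 ± 0.0773), and its second cluster differed by 1.11. Spry1 (0.47 ± 0.0659) and Fos (0.35 ± 0.0706) were also higher, so members of 1 family, Spry1 and Spry4, differed in direction.

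Among 23 genes of the RAS and RAF machinery, 3 were called higher and 5 lower, against 13.4% and 12.6% of all genes. Rras2 (-0.66 ± 0.0705), a RAS-related GTPase, Nf1 (-0.39 ± 0.0651), which inactivates RAS, and the RAL exchange factor genes Ralgds (-0.29) and Rgl1 (-0.27) were lower. Rasgrp1, an exchange factor that activates RAS, was higher by 0.61 ± 0.0964, at 8.57, 8.72 and 8.79 against 7.85, 8.27 and 8.13. The higher count fell to 1 without MT-HGF array 2 and ran from 1 to 6 over the 17 alternatives.

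The layers of the epidermis differed in unequal ways. Of 17 basal genes 2 were higher and 5 lower, counts that ran from 0 to 3 and from 2 to 6 over the alternatives and that moved by over 1.5 times when any single array was left out. The laminin gene Lamb3 (-0.48 ± 0.0856) and Igfbp3 (-0.60 ± 0.0932) were called lower in each of the 17 alternatives. In the spinous list, beside Krt1 and Krt10, the receptor gene Notch3 was higher (0.43 ± 0.0689). In each direction 2 of 17 genes were called, against 13.4% higher and 12.6% lower over all genes. The median of that list was 0.02. Without MT-HGF array 2, MT-HGF array 3, RAS array 1 or RAS array 3, 1 spinous gene was called higher, and the counts over the 17 alternatives were 1 to 3 higher and 2 to 5 lower.

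Granular and cornified genes split evenly, with 10 of 37 higher, 10 lower and a median of 0.01. Klk13 (0.99 ± 0.103), a kallikrein protease, Sptlc3 (0.85 ± 0.104) and Elovl1 (0.39), enzymes of sphingolipid and long-chain lipid synthesis, and Casp14 (0.36), the protease of cornification, were higher. Rptn (-1.02 ± 0.155), Tchh (-0.84 ± 0.0676) and Hrnr (-0.65), which encode related fused S100-type proteins, and the lipoxygenase gene Aloxe3 (-0.72 ± 0.0746) were lower. Rptn read 7.73, 8.18 and 8.51 against 8.87, 9.39 and 9.21, so its groups did not overlap despite a wide spread in MT-HGF cells.

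The LCE genes were nearly all lower. Of 18 tested, 17 were called lower and none higher (0 at an unadjusted limma p under 0.05, and 0 in each of the 17 alternatives), with a median of -1.20, against 12.6% lower and a median of -0.02 over all genes. The list mean was 8.96 to 9.40 on the MT-HGF arrays, 10.26 to 10.43 on the RAS arrays and 7.60 to 7.72 on the wild-type arrays. Lce1h read 10.19, 10.25 and 10.67 against 12.27, 12.19 and 12.28 (-1.87 ± 0.11, limma adjusted p = 5.61e-09). Lce1i read 8.12, 8.55 and 8.82 against 10.19, 10.37 and 10.58 (-1.89 ± 0.135). Lce1b (-1.79) and Lce1l (-1.71, with 2 MT-HGF arrays above background) followed, and 12 of the 18 were lower by 2-fold or more. LCE genes are close copies in 1 cluster, and probes may be shared, so single members are uncertain.

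SPRR genes and other cornified genes of stressed skin were more often higher than lower, with 11 of 23 higher, 4 lower and a median of 0.18. The stefin genes Stfa2 (1.24 ± 0.17) and Stfa3 (0.85 ± 0.0917), inhibitors of cysteine proteases, and the envelope genes Sprr2d (0.77 ± 0.0774) and Sprr2e (0.70) were higher. These are also families of close copies. S100a7a, an S100 protein of inflamed skin, read 8.61, 8.58 and 8.77 against 9.89, 9.46 and 9.71 (-1.03 ± 0.0948), and Sprr4 (-0.87), Slpi (-0.54) and Krt16 (-0.24) were lower too.

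Keratins of simple epithelia were higher in MT-HGF cells, 4 of 6 tested and none lower (0 at an unadjusted limma p under 0.05), with a median of 0.52. Krt8 read 9.87 or more on each MT-HGF array against 9.39, 8.92 and 8.95 (0.86 ± 0.115), and its partner Krt18 9.72, 9.59 and 9.78 against 9.15, 8.65 and 8.95 (0.78 ± 0.106). Krt19 was higher by 0.83 ± 0.0765, with 2 RAS arrays above background. The groups of all 3 did not overlap, and wild-type means were 8.57, 7.38 and 6.66.

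Among 25 genes of desmosomes, adherens, tight and gap junctions 10 were higher and 2 lower. The claudins Cldn7, at 8.75, 8.58 and 8.62 against 7.79, 7.60 and 7.32 (1.08 ± 0.11), and Cldn3 (1.01 ± 0.104) and the connexin Gja1 (0.63 ± 0.0664) were higher. Cdh2, N-cadherin, read 7.21, 7.17 and 7.30 against 8.39, 8.28 and 8.25 (-1.08 ± 0.0663, limma adjusted p = 8.94e-09). The lower count fell to 1, Cdh2, without MT-HGF array 1, MT-HGF array 2 or RAS array 3, and ran from 1 to 3 over the 17 alternatives. Of 25 hair follicle and sebaceous genes 4 were higher and 2 lower, against 13.4% and 12.6% of all genes. Among the higher were the desaturase genes Scd1 (0.84 ± 0.079) and Scd3 (0.78, with 1 RAS array above background). The lower were Sox9 (-0.39) and Hoxc13 (-0.84, with 1 MT-HGF array above background), both transcription factors of the follicle.

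**Figure D3:**
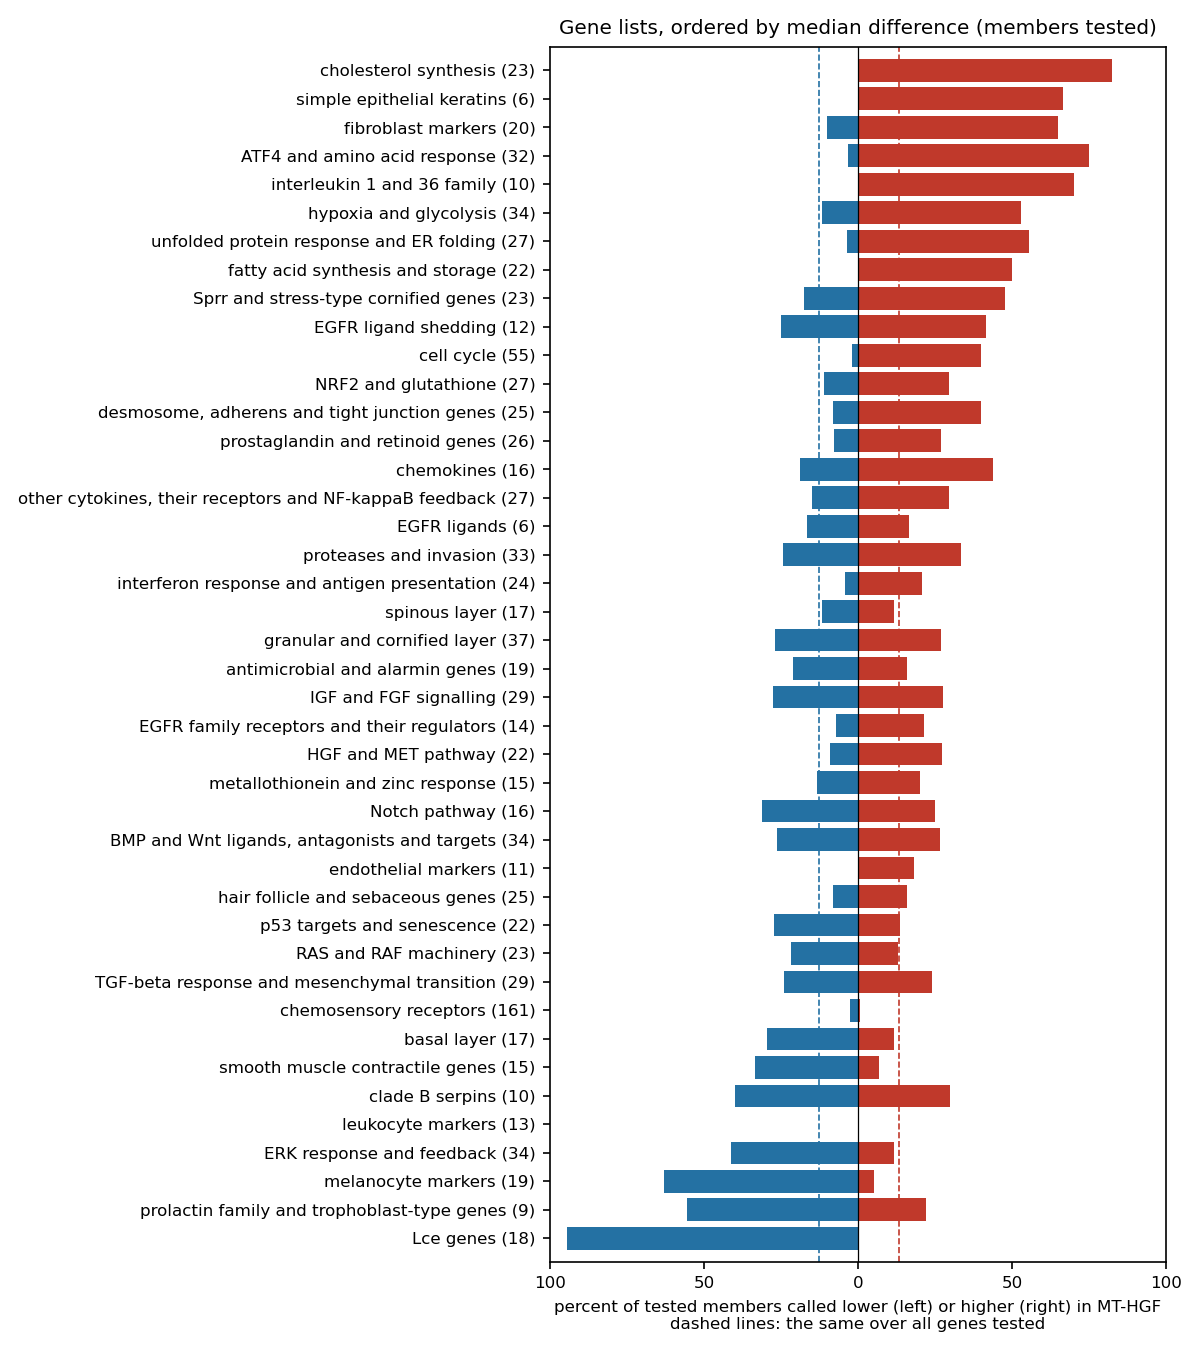
Percent of the tested members of each gene list called higher (red, to the right) or lower (blue, to the left) in MT-HGF cells, with the number tested in brackets and lists ordered by median difference. Dashed lines give the percents over all genes, 13.4 higher and 12.6 lower. Cholesterol synthesis (19 of 23 higher) stands at the top and the Lce genes (17 of 18 lower) at the bottom.

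Interleukin 1 family genes, alarm signals of keratinocytes, were higher in MT-HGF cells, 7 of 10 and none lower (0 at an unadjusted limma p under 0.05, and 0 to 1 over the 17 alternatives), with a median of 0.32. Il33, the alarmin that acts on ST2, read 10.13, 10.32 and 10.49 against 8.79, 8.77 and 9.04 (1.45 ± 0.10, limma adjusted p = 2.97e-08). Il1f6, interleukin 36 alpha, read 9.80, 10.04 and 10.24 against 8.79, 8.83 and 8.99 (1.15 ± 0.111). Il1a (0.50 ± 0.0821) and the antagonist gene Il1rn (0.33) were higher by less. Wild-type means were 8.39, 6.26, 9.41 and 8.17 for these genes in that order.

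Of 16 chemokines 7 were higher and 3 lower, 2 of the latter not above background in either group. Beside Cxcl5, the neutrophil chemokine genes Cxcl1 (0.48 ± 0.0948) and Cxcl3 (0.59 ± 0.129) were higher, and Cxcl2 was above background on only 1 of the 6 arrays, an MT-HGF array. Ppbp, a chemokine gene of the same cluster, was lower, at 11.12, 11.39 and 11.53 against 11.97, 11.76 and 11.85 (-0.51 ± 0.104). Of 27 other cytokine and NF-kappaB genes 8 were higher and 4 lower, the higher count being 5 without RAS array 2 and 5 to 11 over the 17 alternatives. Tslp, which drives allergic inflammation, read 10.74, 10.99 and 10.96 against 9.81, 10.05 and 9.89 (0.98 ± 0.0813), and Nfkbia, the inhibitor that NF-kappaB induces, 10.99 to 11.02 against 10.29 to 10.40 (0.64 ± 0.0656). Csf1 (-0.78 ± 0.0869), the macrophage growth factor, Nfkb2 (-0.47) and Il24 (-0.52) were lower.

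Antimicrobial genes showed no common direction, with 3 of 19 higher, 2 of them not above background in either group, and 4 lower. Over all genes the shares were 13.4% higher and 12.6% lower. Lcn2, lipocalin 2, was at least 1.67-fold higher, with no RAS array above background, and averaged 9.16 in the AG1478-treated cells. Defb4, a beta-defensin, was lower by 1.06 on the log2 scale, with 2 MT-HGF arrays above background, and the bacterial sensor gene Pglyrp4 by 0.49. The lower count was 2 without MT-HGF array 1, MT-HGF array 2, RAS array 1 or RAS array 3, and 2 to 5 over the 17 alternatives. Among 24 interferon and antigen presentation genes 5 were higher and 1 lower, or 3 higher without MT-HGF array 2 and 2 lower without RAS array 1 or RAS array 2, with 3 to 7 higher and 0 to 3 lower over the 17 alternatives. Of 26 prostaglandin and retinoid genes 7 were higher and 2 lower, or 1 lower without MT-HGF array 2 and 1 to 4 lower over the 17 alternatives. Crabp2, which carries retinoic acid to its receptors, read 12.00, 12.02 and 11.97 against 11.04, 10.92 and 10.88 (1.05 ± 0.0763), and the retinol dehydrogenase gene Rdh12 (0.78 ± 0.0797) and the prostaglandin-degrading enzyme gene Hpgd (0.71 ± 0.0743) were higher. Ptgds, a prostaglandin D synthase, was lower (-0.70 ± 0.113).

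Proteases and invasion genes divided, with 11 of 33 higher and 8 lower. Heparanase, Hpse (1.02 ± 0.0779, with 1 RAS array above background), the metalloproteinase genes Mmp11 (0.85 ± 0.0708) and Mmp28 (0.73 ± 0.0748) and the serine protease gene Tmprss11e (0.86 ± 0.112) were higher. Beside Mmp3 and Mmp10, the inhibitor gene Timp2 (-0.51) and the integrin gene Itga5 (-0.53), part of the fibronectin receptor, were lower. Clade B serpins likewise split, 3 of 10 higher, 2 of them not above background in either group, and 4 lower. Serpinb11 (0.97 ± 0.121) was higher and Serpinb10 (-0.71), Serpinb6c (-0.62) and Serpinb9b (-0.61) were lower. These are close copies too.

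Genes of TGF-beta response and mesenchymal transition were called higher for 7 and lower for 7 of 29. Tgfbi read 9.64, 9.54 and 9.60 against 8.39, 8.34 and 8.23 (1.27 ± 0.0857), and the matrix protein gene Sparc 11.97 to 12.03 against 11.40 to 11.46 (0.59 ± 0.0588). Vim, the intermediate filament of mesenchymal cells, read 10.98, 10.97 and 10.97 against 11.64, 11.58 and 11.62 (-0.64 ± 0.0572). Tgfb3 (-0.70 ± 0.101), Ccn2 (-0.47) and Inhba (-0.44) were lower. The higher count was 3 to 4 without MT-HGF array 1, MT-HGF array 3 or RAS array 2, and 3 to 9 over the 17 alternatives, where the lower count was 6 to 11. Of 15 contractile genes of smooth muscle 5 were lower and 1 higher, a call lost without MT-HGF array 2, MT-HGF array 3 or RAS array 2. Actg2 read 7.90, 8.02 and 8.04 against 9.18, 9.37 and 9.01 (-1.20 ± 0.092), and Acta2 (-0.72), Myl9 (-0.66) and Tagln (-0.49) were lower, all with still higher wild-type means of 10.71 to 12.34.

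Prolactin family genes encode placental hormones, and both groups carried signals of 2 of them. Prl7b1 read 7.46, 7.52 and 7.73 on the MT-HGF arrays and 9.0, 8.50 and 9.10 on the RAS arrays (-1.30 ± 0.124, limma adjusted p = 1.10e-06), with a wild-type mean of 4.57. Prl8a9 read 9.33, 9.47 and 9.72 against 10.43, 10.28 and 10.53 (-0.91 ± 0.14), with a wild-type mean of 6.94. Over the list of 9, which also holds Ly6 genes, 5 were lower, 2 of them with at most 1 of the 6 arrays above background, and 2 higher, or 1 without MT-HGF array 2 or RAS array 2. Close copies make single Prl members uncertain.

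Several lists of metabolic genes were more often higher than lower in MT-HGF cells. Of 23 cholesterol synthesis genes 19 were higher and none lower (0 also at an unadjusted limma p under 0.05, and 0 to 1 over the 17 alternatives), with a median of 0.59 against -0.02 for all genes. The list mean was 9.97 to 9.99 on the MT-HGF arrays, 9.49 to 9.52 on the RAS arrays and 8.86 to 8.97 on the wild-type arrays. Lss, lanosterol synthase, read 10.35, 10.29 and 10.30 against 9.57, 9.60 and 9.70 (0.69 ± 0.0634). Mvd (0.76 ± 0.0685), of the mevalonate pathway, Sqle (0.63), squalene epoxidase, and Msmo1 (0.59), a sterol oxidase, were higher by similar amounts, and no member reached 2-fold. Of 22 fatty acid genes 11 were higher and none lower (0 at an unadjusted limma p under 0.05, and 0 to 1 over the 17 alternatives). Fads2, a fatty acid desaturase, read 10.82 or more on each MT-HGF array against 9.87, 9.49 and 9.63 (1.24 ± 0.114), and Cpt1a, which admits fatty acids to mitochondria for oxidation, 10.44 to 10.49 against 9.22 to 9.47 (1.12 ± 0.0772). Scd2 (0.76) and Acly (0.57), which makes the acetyl-CoA for lipid synthesis, were higher as well.

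The hypoxia and glycolysis list had 18 of 34 members higher and 4 lower, with a median of 0.30, and 7 members were higher by 2-fold or more against 0.561% of all genes. The list mean was 9.83 to 9.96 on the MT-HGF arrays and 9.41 to 9.48 on the RAS arrays. Beyond Egln3, Slc16a3, Car12 and Aldoc, Ddit4, an inhibitor of mTORC1, read 11.03, 11.08 and 10.92 against 9.69, 9.73 and 9.82 (1.26 ± 0.0754). Other members went the other way: Hk2, a hexokinase, read 9.09 to 9.24 against 10.08 to 10.26 (-1.01 ± 0.105), Pfkfb4, a regulator of glycolytic flux, was lower by 0.85 and Adm, the vascular peptide adrenomedullin, by 0.93 on the log2 scale.

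**Figure D4:**
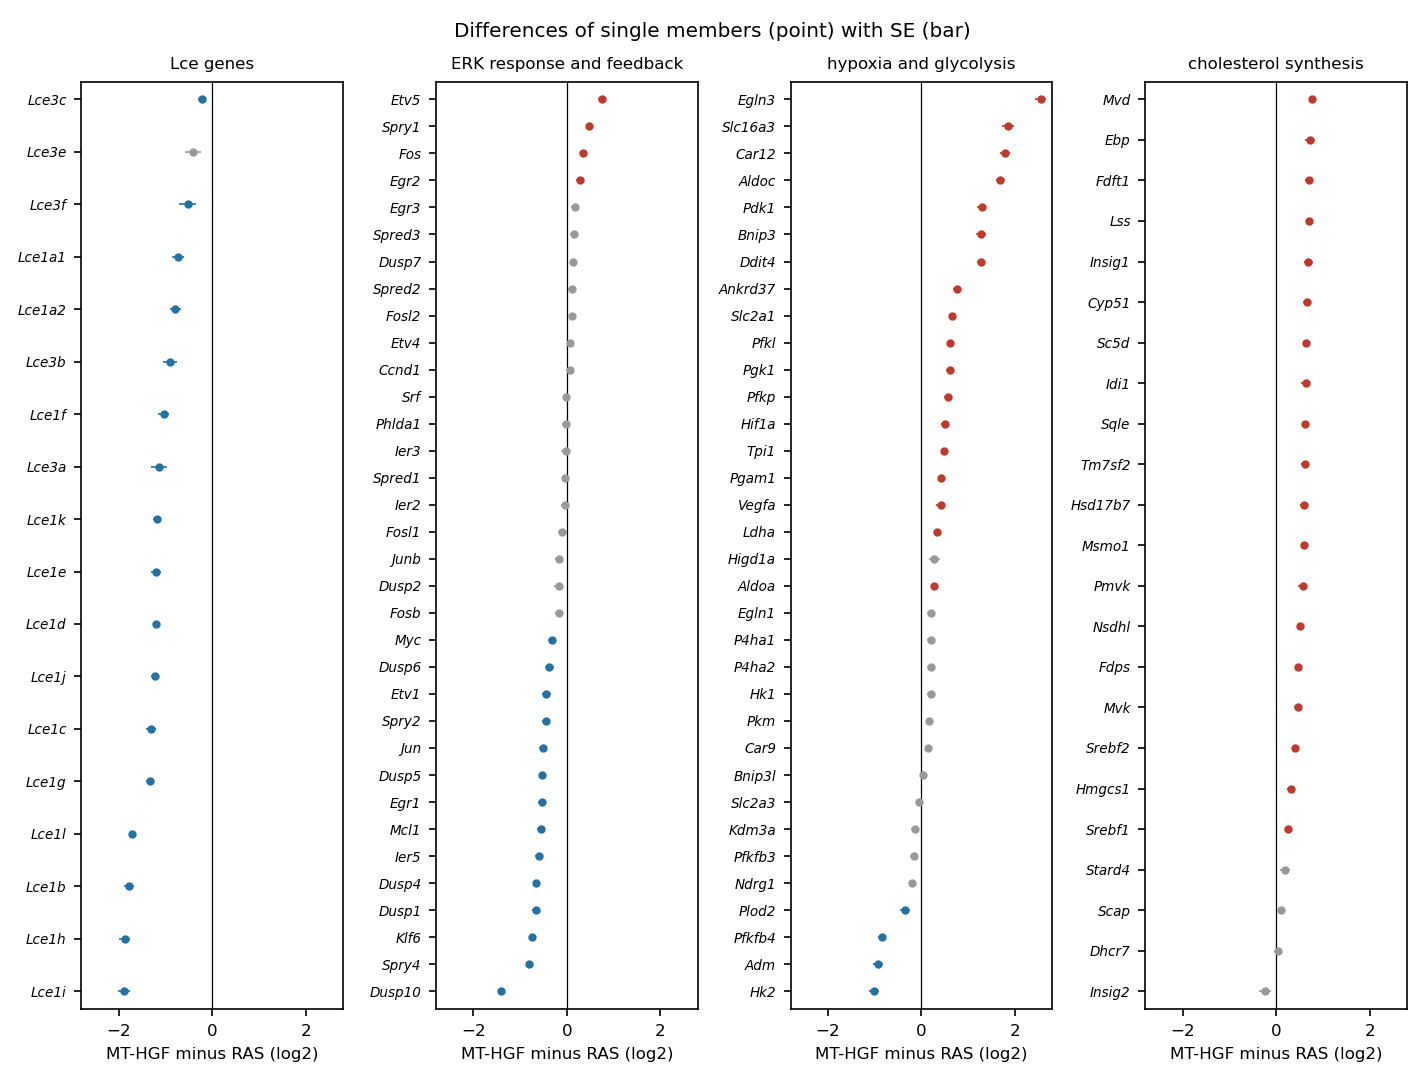
Difference MT-HGF minus RAS (log2, point) with its SE (bar) of each tested member of 4 lists, 3 arrays per group; red and blue points were called higher and lower, and grey points were not called. Lce genes lie to the left of 0 and most cholesterol synthesis genes in a narrow band near 0.59, whereas the hypoxia and glycolysis genes spread from Hk2 (-1.01) to Egln3 (2.55). Members whose lower group is near background have understated differences.

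Amino acid and stress genes under the transcription factor ATF4 were higher for 24 of 32 members and lower for 1, with a median of 0.37. The list mean was 10.24 to 10.32 on the MT-HGF arrays, 9.80 to 9.86 on the RAS arrays, 9.86 to 9.93 on the wild-type arrays and 9.65 to 9.70 on the AG1478 arrays. Stc2 read 9.59, 9.61 and 9.47 against 8.04, 8.02 and 8.09. Slc6a9, a glycine transporter, read 11.28, 11.22 and 11.13 against 10.16, 10.20 and 10.22 (1.02 ± 0.061), and Chac1, which degrades glutathione, 10.92, 10.97 and 10.96 against 9.95, 9.85 and 9.98 (1.02 ± 0.069). Aldh18a1, of proline synthesis, was higher by 0.79 ± 0.0692. Of 27 genes of the unfolded protein response and folding in the endoplasmic reticulum 15 were higher and 1 lower, with a median of 0.28. The degradation factors Derl3 (0.91 ± 0.0874), Herpud1 (0.57) and Derl1 (0.48) and the folding factor Creld2 (0.65) were higher. The single lower calls of both lists were lost without MT-HGF array 1 or MT-HGF array 2, and that of the ATF4 list also without RAS array 3.

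Antioxidant genes under NRF2 did not move together. Of 27 tested, 8 were higher and 3 lower, and 5 were higher without MT-HGF array 2 and 5 to 12 over the 17 alternatives. Beside Slc7a11, the quinone reductase gene Nqo1 (0.85 ± 0.087, with 1 RAS array above background), Gpx1 (0.61) and Tkt (0.51), of the pentose phosphate pathway, were higher. Srxn1, sulfiredoxin, read 9.04, 9.18 and 9.20 against 10.32, 10.16 and 10.41 (-1.15 ± 0.0733), and Txnrd1, thioredoxin reductase, was lower by 0.59. Hmox1, heme oxygenase, which is counted in the metallothionein and zinc list below, read 10.86, 11.05 and 11.12 against 12.08, 11.90 and 12.11 (-1.02 ± 0.0907). Its mean was 9.84 in wild-type cells.

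The transgene has a metallothionein promoter, which zinc and stress induce, and any part of the metallothionein and zinc list in its signal was not tested. Of 15 genes in that list 3 were higher and 2 lower, against 13.4% and 12.6% of all genes. The list median was -0.02. Mt2 read 12.76, 12.78 and 12.77 against 12.40, 12.50 and 12.44 (0.33 ± 0.0631), with 12.52 in wild-type cells. Mt1 (0.31 ± 0.0855) and the zinc transporter gene Slc30a4 (0.57 ± 0.0723) were higher. Slc39a14 (-0.37) was lower, as was Hmox1 (-1.02), the only member of the list called at 2-fold or more.

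Cell cycle genes were higher for 22 of 55 and lower for 1, with a median of 0.15 and no member at 2-fold. Bub1, a mitotic checkpoint kinase, read 9.62, 9.68 and 9.69 against 9.07, 9.11 and 9.15 (0.55 ± 0.0803). Tk1 (0.52 ± 0.0796), thymidine kinase, Ube2c (0.42) and Anln (0.32), which act in mitotic exit and cytokinesis, were higher. E2f8, a transcriptional repressor, was lower, at 9.89, 9.89 and 10.02 against 10.34, 10.32 and 10.50 (-0.45 ± 0.0792). The lower count was 3 without MT-HGF array 3 or RAS array 1 and 1 to 5 over the 17 alternatives, and 6 were lower at an unadjusted limma p under 0.05. Of 22 p53 and senescence genes 3 were higher, with Cdkn1b (0.42), an inhibitor of cyclin-dependent kinases, and Gadd45a (0.36), and 6 lower, with Mdm2 (-0.49 ± 0.0927), Plk2 (-0.44), Gadd45g (-0.44) and Trp53inp1 (-0.40).

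Signalling pathways of growth and patterning were mixed. In the Notch pathway 4 of 16 genes were higher, with the ligand gene Jag2 (0.42) and the glycosyltransferase gene Rfng (0.42), and 5 lower, with the ligand gene Jag1 (-0.46) and the target Nrarp (-0.53). The lower count was 2 to 3 without MT-HGF array 2, MT-HGF array 3 or any RAS array. Of 34 BMP and Wnt genes 9 were called in each direction. The ligand genes Wnt10a (0.44) and Wnt7a (0.39) were higher, while Grem1, a secreted BMP antagonist, read 8.78, 8.65 and 8.62 against 9.77, 9.71 and 9.73 (-1.05 ± 0.0687), and the BMP target Id2 was lower by 0.82. Of 29 IGF and FGF genes 8 were called in each direction. Igfbp7 read 12.38, 12.20 and 12.23 against 11.39, 11.21 and 11.31 (0.97 ± 0.0732), opposite to Igfbp2 and Igfbp3. Fgfbp1 (0.89 ± 0.0716), which releases FGFs from the matrix, Igf2r (0.61) and Igf1 (0.88, with 1 RAS array above background) were higher, and Fgf7, keratinocyte growth factor, was lower (-0.96 ± 0.0893). The IGF and FGF counts were 5 higher and 5 lower without RAS array 2, and 5 lower without RAS array 3, and each ran from 5 to 10 over the 17 alternatives.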

How the data were processed

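RNA of 12 primary keratinocyte cultures was measured on Affymetrix Mouse Gene 1.0 ST arrays. The deposited log2 expression values were made by the authors with RMA, per the submitters' processing notes, and the version and any shared run are not given in the sources used here. Groups follow the sample titles. Of 35511 clusters, 21789 had 1 gene symbol in GEO's platform annotation, 1621 several and 12101 none, and 21698 matched a current record by Entrez ID, with 0 symbols changed. To be kept, a cluster had to exceed the 30th percentile of an array on 3 or more of the 12, as 25860 did. The kept cluster with the highest mean represented a gene (815 genes had several). A group-means model of all 12 arrays was fitted with limma 3.58.1 in R 4.3.3 (with data.table, release 1.17.8), with 8 residual and 8.02 prior degrees of freedom, and MT-HGF minus RAS was tested two-sided with Benjamini-Hochberg adjustment over 15868 genes. The step was tested on simulated data. An exact permutation test of 3 against 3 arrays cannot go below 0.1 and was not used. The number of arrays limits the precision.

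Named genes were the 20 largest differences each way among called genes whose groups do not overlap and whose higher group exceeded background on 3 arrays, Hgf, Met, Egfr and the EGFR ligands, and up to 4 called members per list and direction with the smallest adjusted p. Where a list had under 2 called members, those with the largest difference filled it to 2. The comparison, the 41 lists and the alternatives were chosen with earlier results of these data known.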

Additional observations from a re-analysis of the deposited data

Results flagged for a closer look

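Clusters without a single gene symbol, which no gene test used, also differed between the groups. Fitted with all 25860 kept clusters, 29 of them were called at 2-fold or more higher in MT-HGF cells and 6 lower. These were 2 higher and 0 lower of 1100 kept clusters with several symbols, and 27 and 6 of 7462 with none. In the same fit, 92 of 17298 clusters with a single symbol were higher and 73 lower by 2-fold or more. At any size, 13.5% of the clusters with several symbols and 11.6% of those with none were called, against 21.7% of those with a single symbol.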

How the results depend on the processing

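The comparison was repeated under 17 alternatives. The number of genes called was 4131 and ranged from 2961 to 5691, within 1.5 times, and from 2961 to 3773 with any 1 MT-HGF or RAS array left out. Genes at 2-fold or more numbered 149 to 164, against 159. Of 259 named genes called, 225 were called in every alternative that tested them, and 259 kept their direction in each of these. Some of them, Lum and Wif1 included, were tested in only 16 of the 17 alternatives. Met, not called, ranged from -0.076 to 0.029 with single arrays left out, above 0 without MT-HGF replicate 1 (0.019), RAS replicate 1 (0.0066) or RAS replicate 3, and was 0.038 with array weights. Egf, at background, ranged from -0.106 to 0.062, above 0 without RAS replicate 1. Irf1 was called higher, but its 2 clusters differed by 0.51 and -0.15, and their mean was not called (limma adjusted p = 0.0761).

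Of 82 counts of list members called, 46 stayed within 1.5 times in every alternative and 36 did not in at least 1. Leaving out MT-HGF array 2 moved the most, 16 of 82. The main fit took the replicate numbers as names only and did not pair arrays by them. Yet deviations of same-numbered MT-HGF and RAS arrays correlated at 0.473, 0.087 and 0.495. MT-HGF array 1 with RAS array 3, and MT-HGF array 3 with RAS array 1, gave -0.477 and -0.453. Each MT-HGF and RAS array correlated best with its own number, a hint of a pairing that the main fit leaves out. Deviations within a group of 3 arrays add up to 0, so these correlations are not separate results. Array medians also fell from replicate 1 to replicate 3 in both groups, from 6.83 to 6.78. The part of that fall in the correlations was not tested. Whether same-numbered arrays share a batch was not tested. With the replicate number as a block 4254 genes were called over 12 arrays and 5691 over 6, against 4131 in the main fit. Signals near background understate differences, and 3 arrays per group limit the precision.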
